A study of Mus musculus with 2 samples.

Results

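The genes described here encode heat shock proteins and their partner chaperones, and their RNA levels are given in 2 total RNA-seq libraries of ES-E14 cells, an established mouse embryonic stem cell line. Members were chosen by a rule on symbols that used no measured value, though earlier results of these data were known. The rule took genes annotated as protein-coding in GENCODE M21. Their symbols had to name an Hsp70, Hsp110, Hsp90, Hsp60, Hsp10 or small heat shock protein. Symbols of a DnaJ protein of class A, B or C, or of a subunit of the TCP1 ring, were also taken. This gave 79 of the 21474 protein-coding genes in the tables. The symbol of 1 further gene, Hspa14, also met the rule, but it had no entry under its identifier and is not analysed here. The line comes from a male embryo of strain 129/Ola. No treatment, heat shock or genetic change is given in the labels, so all levels are those of a single condition in culture. The labels number the libraries as biological replicates 1 and 2 but name a common biosample, so their spread may be technical.

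Heat shock proteins bind unfolded proteins and keep them from clumping. Hsp70 proteins cycle on and off a client using ATP. DnaJ proteins bring them the client and start the ATP step, while exchange factors reset them. Hsp90 completes the folding of kinases, receptors and other signalling proteins, and the TCP1 ring encloses actin and tubulin as they fold. Some members are made at all times, and others are switched on by heat through the factor HSF1 or, in the endoplasmic reticulum (ER), by the unfolded protein response (UPR). In pluripotent stem cells, high levels of the TCP1 ring and of the constitutive cytosolic Hsp70 have been described.

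The libraries held 43163253 and 45573478 expected counts on genes, in the order replicate 1 and replicate 2, which is used throughout. Levels are in TPM, a share of all transcripts that corrects for transcript length and so allows genes to be compared. Protein-coding genes took 19.4% and 23.8% of all TPM in these libraries, so a level of 1 TPM is a larger share of the messenger RNA than the unit would imply. All 8 markers of embryonic stem cells that were examined passed 1 TPM in both libraries, among them Pou5f1 at 162.43 and 201.07 TPM. Of these markers 5 were higher in replicate 2 and 3 lower, among the latter Tdgf1 at 318.39 and 197.95 TPM. Of 10 markers of fibroblasts, which are often used as feeder cells, 6 passed the limit in both and Lum was at 0 in both. Their summed level was 137.84 and 466.87 TPM. The largest parts of that sum were Vim, at 88.91 and 301.94 TPM, and Acta2, at 33.04 and 100.23 TPM. These are bulk samples, so fewer cells of a type and less RNA per cell cannot be told apart.

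Chaperone genes were detected, at 1 TPM or more in both libraries, in 59 of 79 cases, or 74.7%, where 46.3% of all protein-coding genes were. A further 3 passed the limit in replicate 2 only (Dnajb4, Dnajc12 and Hspa4l), and 17 were under it in both. The median member stood at 5.67 and 6.73 TPM, and the median protein-coding gene at 0.76 and 0.94 TPM. Together the members held 1.75% and 1.98% of protein-coding TPM. That RNA was concentrated in a few genes. The 4 highest, Hspa8, Hsp90aa1, Hsp90ab1 and Hspa5, held 52.3% and 51.0% of it, and these were also the only members among the 100 highest protein-coding genes by mean TPM.

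**Figure D1:**
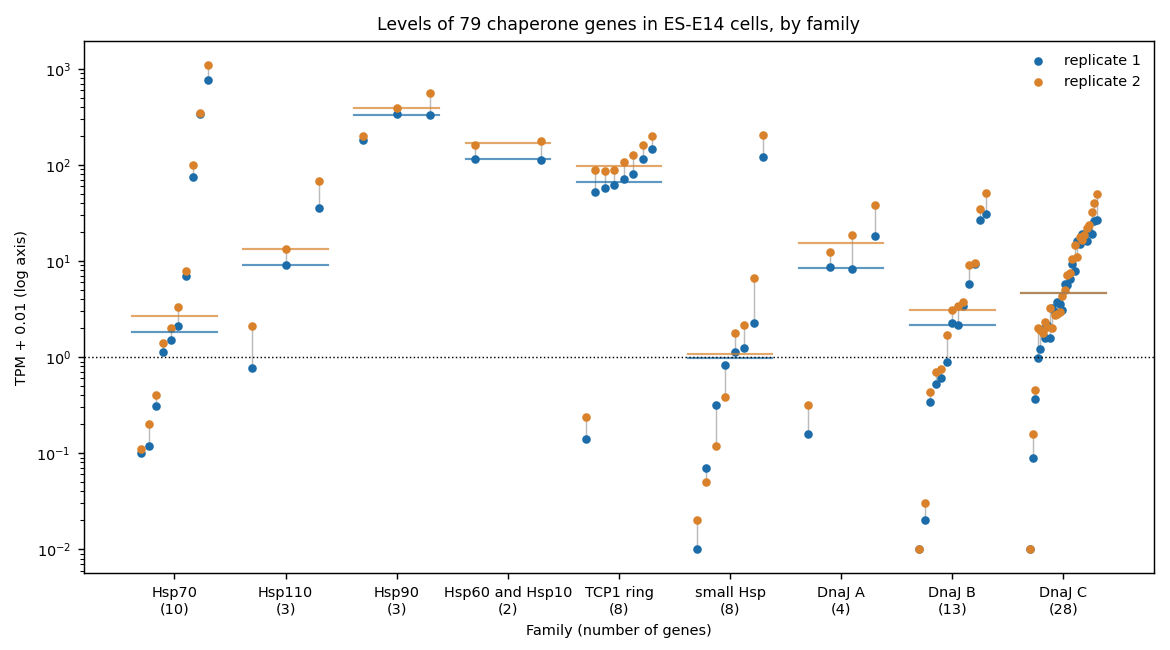
TPM of each of the 79 genes (log axis, with 0.01 added so that zeros can be drawn) by family, 1 point per library joined by a grey line; horizontal bars are family medians and the dotted line is 1 TPM. The Hsp90 and Hsp60 families lie wholly above 100 TPM, while the Hsp70, small Hsp and DnaJ families run from under 1 TPM to their highest member.

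The Hsp70 family held 35.1% and 33.2% of all member TPM, nearly all of it on the genes for 3 compartments. Hspa8 encodes Hsc70, the constitutive Hsp70 of the cytosol, which also strips clathrin coats and delivers proteins to the lysosome. It lies on chr9:40800984-40810087 (GRCm38, plus strand) and was the highest member, at 758.71 and 1099.71 TPM, or 929 ± 241 (SD, n = 2). Hspa5 encodes BiP, the Hsp70 of the ER, and was at 341.95 and 349.7 TPM. Hspa9 encodes mortalin, which pulls proteins into the mitochondrial matrix, and was at 74.61 and 100.48 TPM. The order cytosol, ER, mitochondrion was the same in both libraries, with no overlap between the 3 genes.

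The stress-inducible Hsp70 genes Hspa1a and Hspa1b encode nearly the same protein and sit 9951 bases apart on chromosome 17. Hspa1a was at 1.12 and 1.39 TPM, and Hspa1b at 2.11 and 3.35 TPM. Their transcripts were 99.2% identical over 2201 aligned bases, so the split of reads between them is uncertain, but their sum does not depend on that split. The summed level was 3.23 and 4.74 TPM, on 679.05 and 945.13 expected counts, and the level of Hspa8 was 235 and 232 times this sum. Counted over transcripts of coding type alone, the ratio was 91.4 and 96.7. The lower bound of the deposited interval for Hspa1a in replicate 1, 0.946 TPM, was under the detection limit.

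Of the other Hsp70 genes, Hspa13, which encodes a small ER-linked relative, was at 6.95 and 7.82 TPM. Hspa2, best known from the testis, was at 1.49 and 2.02 TPM. The testis gene Hspa1l was at 0.09 and 0.10 TPM, and Hspa12a and Hspa12b, distant relatives of the family, were at 0.11 and 0.19 TPM and at 0.30 and 0.39 TPM. These last 3 were under the limit in both libraries. The Hsp110 genes encode relatives of Hsp70 that act as its exchange factors. Hspa4, the constitutive one, was at 35.53 and 67.54 TPM, and Hsph1, the heat-inducible one, at 9.14 and 13.28 TPM, so Hspa4 stood 3.89 and 5.09 times above Hsph1. Hspa4l was the lowest, at 0.76 and 2.12 TPM.

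Hspa8 shares its sequence with other expressed loci, which limits how well its level is known. A copy was counted here as a gene whose transcript matched at least 50% of the leading transcript of a member at 95% identity or more. The processed pseudogene Gm15459 (chr5:5781615-5783555) was 99.7% identical to Hspa8 over 1478 bases and carried 36869.76 and 55514.47 expected counts, beside 64182.22 and 89701.31 on Hspa8. The long noncoding RNA gene Gm26825 covers the same stretch of chromosome 5 and carried 10984 and 17229 counts. With the pseudogene Gm8355, on chromosome 10, the 3 copies held 75.3% and 82.3% as many counts as Hspa8 itself. Whether reads on these copies came from them or from Hspa8 was not tested. With the copies added, Hspa8 stood at 1111.1 and 1670.22 TPM.

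The same search found smaller shares elsewhere. The pseudogene copy of Dnajc17, Gm6257, held 15.0% and 12.8% as many counts as the gene, on 25.18 and 20.07 counts. Copies of Hspb1 held 7.62% and 5.78% as many counts as the gene, copies of Hspd1 1.79% and 2.09%, and copies of Hsp90aa1 1.64% and 2.17%. At low levels an overlapping gene can outweigh the member. Dnaja4 overlaps Wdr61 on chromosome 9, so the 1581 bases that matched at full identity are the same stretch of DNA and no separate copy. The 985 and 1603 counts of Wdr61 far exceeded the 33 and 59 of Dnaja4. Hspa1l overlaps the antisense gene Gm10501 on chromosome 17, which held 112 and 124 counts beside 15.94 and 17.88 on Hspa1l. No source used here gives the strand setting of the counting, so the last 2 members are uncertain.

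**Figure D2:**
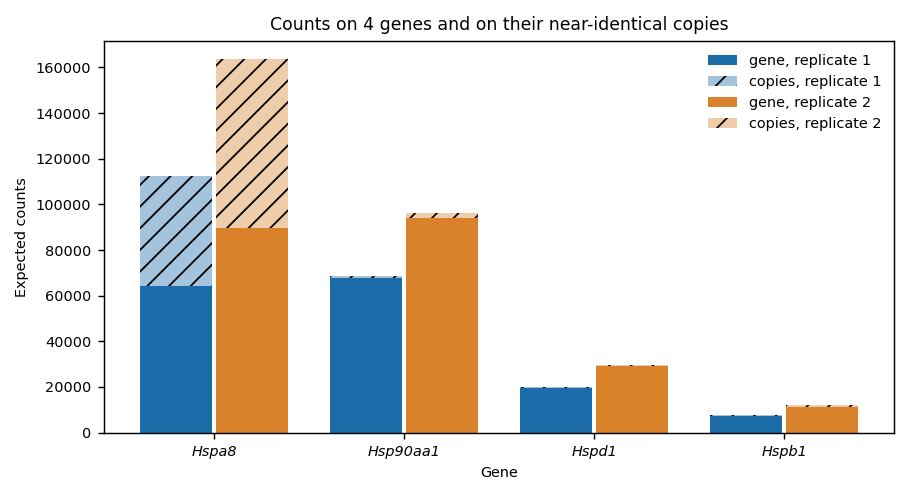
Expected counts on 4 members (solid bars) and on their near-identical copies (hatched, stacked on top), for each library. The copies of Hspa8 reach 75.3% and 82.3% of its own counts, while those of the other 3 genes are thin caps.

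The Hsp90 family held 25.2% and 24.4% of member TPM on 3 genes. Hsp90aa1, the heat-inducible cytosolic form, was at 327.44 and 561 TPM. Hsp90ab1, the constitutive cytosolic form, was at 339.26 and 390.14 TPM. The ratio of Hsp90ab1 to Hsp90aa1 was 1.04 and 0.695, so the order of the cytosolic forms in gene TPM turned between the libraries. In expected counts, which do not correct for length, Hsp90aa1 was the higher in both, and over coding transcripts the forms were at about the same TPM in replicate 1 and Hsp90aa1 was higher in replicate 2. Hsp90b1, which encodes the ER form Grp94 and serves integrins and Toll-like receptors, was lower than both, at 183.68 and 200.48 TPM.

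Inducible and constitutive genes of the cytosol were compared through lists drawn from their known regulation. The heat-inducible list was Hspa1a, Hspa1b, Hsph1, Hsp90aa1, Dnajb1 and Hspb1, and all 6 were detected. The constitutive list was Hspa8, Hspa4, Hsp90ab1, Dnaja2 and Dnajc7, beside Hspa14, and the 5 with values were all detected. The heat-inducible median was 7.45 and 11.2 TPM, and the constitutive median 35.53 and 67.54 TPM. On the log2(TPM + 1) scale the heat-inducible median was below the constitutive one by a difference of −2.14 and −2.51, or −2.33 ± 0.26 (SD, n = 2). No test was made, since both values come from a single condition and the lists were chosen with earlier results known.

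The lists overlapped widely, because the heat-inducible genes did not behave as a block. Hsp90aa1 and Hspb1, the latter encoding the small heat shock protein Hsp25, were among the 10 highest members at 327.44 and 561 TPM and at 122.45 and 204.61 TPM. Dnajb1, the DnaJ partner of inducible Hsp70, was at 5.75 and 9.14 TPM. Its constitutive counterpart Dnaja2 was at 8.21 and 18.81 TPM, or 1.43 and 2.06 times as high. In the Hsp70, Hsp110 and DnaJ pairs the constitutive gene was thus higher in both libraries, and between the Hsp90 forms it was higher in gene TPM in replicate 1 only. Counted over coding transcripts alone, the difference was −1.85.

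**Figure D3:**
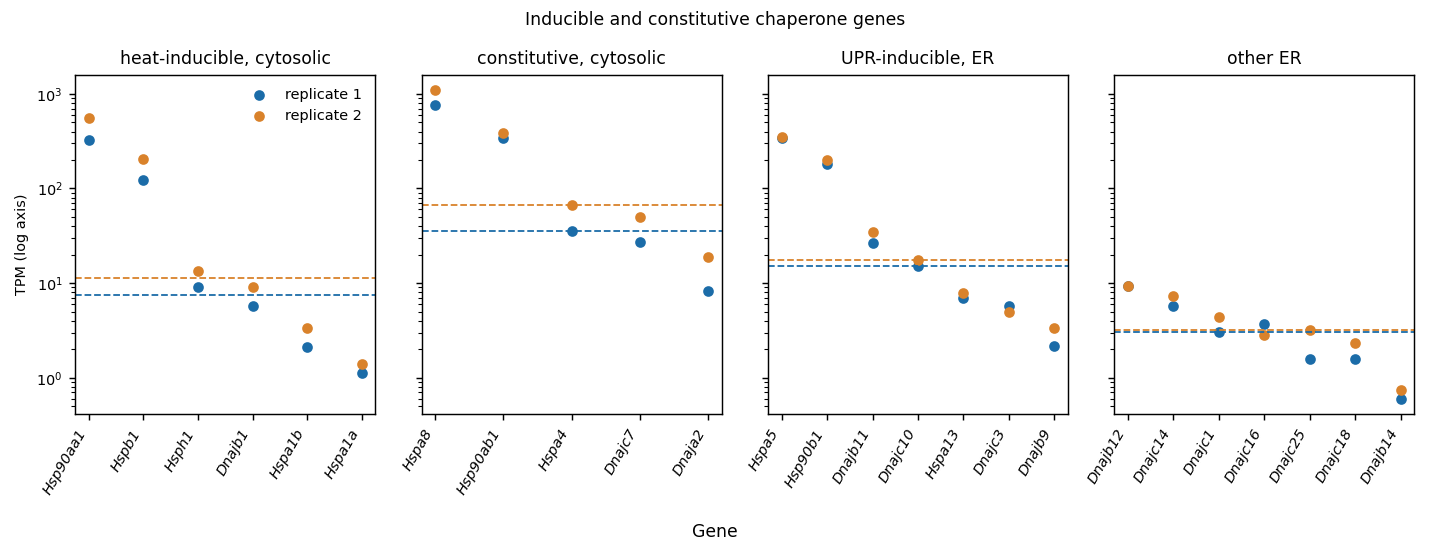
TPM (log axis) of every gene in the 4 lists, with 1 point per library and dashed lines at the list medians. The heat-inducible genes run from Hspa1a near 1 TPM to Hsp90aa1 above 300 TPM, and in the ER lists Hspa5 and Hsp90b1 stand far above the rest.

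Sequences around the start sites of these genes are shown because the lists are defined by the factors that switch them on. RefSeq windows on GRCm38.p6, from 250 bases before to 50 after a gene's RefSeq start, were found for 64 of the 79 members. Distances to a start are counted from the RefSeq start, which can lie inside the GENCODE span of the gene. The pattern GAANNTTC, a pair of heat shock factor units that reads the same on both strands, lay in 7.86% of all 32851 windows. Among the windows of members it lay in 17 of 83, from 15 genes. A longer pattern of 3 units, GAA, TTC and GAA with 2 free bases between units, contains the shorter one and was searched on both strands. It lay in 0.603% of all windows and in 6 of the 83 windows of members, from 4 genes: Dnajb6, Hspd1, Hspe1 and Hsph1. Of the heat-inducible list, 4 of the 5 genes with a window held the shorter pattern: Hspa1a, Hspa1b, Hspb1 and Hsph1. In Hsph1 it lay after the start, by 20 or 41 bases depending on the RefSeq start used. Of the constitutive list 0 of 3 did, and these were Hspa4, Dnaja2 and Dnajc7. No window was found for Hsp90aa1, Hspa8 or Hsp90ab1, so the most abundant genes of both lists were not searched. Of the mitochondrial members, 5 had a window and 2 held the pattern, Hspd1 and Hspe1. A match describes letters only and does not show that a factor binds there.

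In the sequences that follow, capitals mark the match. Hspa1a (chr17:34972233-34972280, minus strand) and Hspb1 (chr5:135887782-135887829, plus strand) show the shorter pattern. It starts 104 bases before the start of Hspa1a, and 117 and 97 bases before that of Hspb1. The bases shown for Hspa1b (chr17:34959315-34959362, minus strand) have the same letters as those of Hspa1a, and the whole windows of these genes differed at 4 of 300 positions. Hspe1 (chr1:55088059-55088081, plus strand) shows a pair of overlapping matches to the longer pattern, 89 and 84 bases before the start. Read on the other strand, the same bases lie 144 and 139 bases before the RefSeq start of Hspd1. That start, at base 55087932, and the matches lie inside the GENCODE span of Hspd1. Dnajb6 (chr5:29735847-29735869, plus strand) holds the longer pattern 46 bases before its RefSeq start, also inside the GENCODE span of the gene.
Hspa1a: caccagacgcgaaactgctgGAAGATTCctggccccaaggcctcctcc
Hspb1: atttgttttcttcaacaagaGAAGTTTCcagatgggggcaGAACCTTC
Hspe1: TTCTAGAACCTTCCGGAAggccc
Dnajb6: tccgaGAATCTTCCGGAAcgcta

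In the ER, the median of the genes known to respond to the UPR was above that of the other ER members, though the lists overlapped. The UPR-inducible list was Hspa5, Hsp90b1, Hspa13 and the DnaJ genes Dnajb9, Dnajb11, Dnajc3 and Dnajc10, and all 7 were detected. Its median was 15.02 and 17.71 TPM, against 3.06 and 3.21 TPM for the other 7 ER genes, a difference of 1.98 and 2.15 on the log2(TPM + 1) scale, or 2.07 ± 0.12 (SD, n = 2). Dnajb11, which encodes ERdj3 and hands clients to BiP, was at 26.63 and 35.08 TPM. Dnajc10, a DnaJ protein with disulfide reductase activity, was at 15.02 and 17.71 TPM. Dnajc3, which encodes an inhibitor of the kinase PERK and a partner of BiP, was at 5.7 and 5 TPM, and Dnajb9, which helps to hold the sensor IRE1 inactive, at 2.15 and 3.39 TPM. Hspa13, Dnajc3 and Dnajb9 were below Dnajb12, the highest of the other ER genes, in both libraries.

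The other ER genes were all below Hspa5, Hsp90b1, Dnajb11 and Dnajc10 in both libraries. Dnajb12, a membrane protein that acts in the disposal of misfolded proteins, was the highest at 9.41 and 9.43 TPM, and its relative Dnajb14 the only one under the limit, at 0.60 and 0.74 TPM. Dnajc14 was at 5.67 and 7.22 TPM, Dnajc16 at 3.72 and 2.80 TPM and Dnajc1 at 3.06 and 4.33 TPM. Dnajc25 was at 1.56 and 3.21 TPM, and Dnajc18 at 1.57 and 2.31 TPM. Hspa5 stood 49.2 and 44.7 times above Hspa13, the other ER Hsp70.

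Sequences of the UPR-inducible genes are shown for the ER stress element, CCAAT and CCACG with 9 free bases between them, which was searched on both strands. It lay in 0.119% of all windows and in 3 of the 83 windows of members. Those 3 belonged to Hspa5, Hsp90b1 and Dnajc3, all on the UPR-inducible list, where 6 genes had a window. Of the 6 other ER genes with a window, 0 held it. Hspa5 (chr2:34772020-34772048, plus strand) holds the element 65 bases before its RefSeq start, inside the GENCODE span of the gene. Dnajc3 (chr14:118937807-118937865, plus strand) holds it 105 bases before its RefSeq start. Hsp90b1 (minus strand) holds it at 212 bases (chr10:86705618-86705676) and, on the other strand, at 107 bases (chr10:86705513-86705571) before its start.
Hspa5: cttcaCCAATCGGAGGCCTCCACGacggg
Hsp90b1, far match: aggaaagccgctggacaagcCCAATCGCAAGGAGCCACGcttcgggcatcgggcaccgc
Hsp90b1, near match: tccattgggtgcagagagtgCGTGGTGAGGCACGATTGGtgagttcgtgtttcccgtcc
Dnajc3: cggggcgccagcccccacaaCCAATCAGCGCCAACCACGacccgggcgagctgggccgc

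All 8 mitochondrial members were detected, with a median of 19.7 and 28.0 TPM. Hspd1 and Hspe1 encode Hsp60 and its lid Hsp10, which together fold proteins of the mitochondrial matrix. They lie head to head on chromosome 1, Hspd1 on the minus strand at chr1:55077835-55088243 and Hspe1 on the plus strand at chr1:55088132-55091307, and their annotated ends overlap by a gap of −112 bases. Hspd1 was at 114.01 and 178.06 TPM and Hspe1 at 114.22 and 162.73 TPM, a ratio of 0.998 and 1.09. The pair was therefore level in both libraries to within 10%.

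Of the mitochondrial DnaJ genes, Dnajc19 and Dnajc11 were the highest. Dnajc19, a partner of the import motor at the inner membrane, was at 19.25 and 32.33 TPM, and Dnajc11, linked to the organisation of the inner membrane, at 20.08 and 23.74 TPM. Dnajc15, a relative of Dnajc19, was at 16.15 and 11.14 TPM, but its single transcript in the tables is annotated as a target of nonsense-mediated decay. Dnaja3, which encodes Tid1, the matrix partner of mortalin, was at 8.69 and 12.32 TPM. Dnajc30 was the lowest, at 1.2 and 1.91 TPM.

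The TCP1 ring held 17.3% and 18.2% of member TPM. It is built from 8 kinds of subunit in equal number, while the RNA levels of the measured subunit genes differed. Cct3 was the highest at 146.24 and 198.53 TPM, followed by Cct5 at 114.13 and 162.64 TPM and Tcp1 at 79.65 and 127.19 TPM. Cct7 was at 71.45 and 106.9 TPM, Cct4 at 62.01 and 89.16 TPM, Cct2 at 57.99 and 86.52 TPM, and Cct8 at 52.71 and 88.46 TPM. The highest of these 7 was 2.77 and 2.29 times the lowest, with a coefficient of variation of 41.2% and 35.2%. In gene TPM the order of Cct3, Cct5, Tcp1, Cct7 and Cct4 was the same in both libraries, while Cct2 and Cct8 changed places. Over coding transcripts Tcp1 was at 50.16 and 87.59 TPM, below Cct7 in both libraries and below Cct2 in replicate 1. Cct6b, a testis form of the sixth subunit, was at 0.13 and 0.23 TPM. The broadly expressed form, Cct6a, is not annotated as protein-coding in M21 and so is no member, but its 55.53 and 90.93 TPM lay within the range of the other subunits.

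Among the small heat shock proteins, which hold unfolded proteins without using ATP, expression was nearly all on Hspb1. Hspb1 was at 122.45 and 204.61 TPM and Hspb8, a partner of the exchange factor Bag3 in autophagy, at 2.27 and 6.73 TPM. Hspb11, a protein of the transport machinery of cilia, was at 1.23 and 2.17 TPM, and Hspb2, a muscle form, at 1.13 and 1.77 TPM. The other 4 were under the limit in both libraries. Hspb6 was at 0.82 and 0.37 TPM, Hspb9 at 0.31 and 0.11 TPM, Hspb3 at 0.06 and 0.04 TPM and Hspb7 at 0 and 0.01 TPM. The last 2 rested on 3 and 2 counts and on 1 and 2 counts, so they did not exceed the floor of 3 counts used here.

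DnaJ genes were the largest class in number, 45 of the 79 members. Their summed level, 355.88 and 495.33 TPM, was below the sums of the Hsp70, Hsp90 and TCP1 ring families. It was above the sums of the Hsp60 and Hsp10, small heat shock and Hsp110 genes. Class A proteins have the full domain set of bacterial DnaJ. Dnaja1, a general Hsc70 partner, was at 18.33 and 38.11 TPM, above Dnaja2 in both libraries. Over coding transcripts Dnaja1 was at 5.69 and 21.17 TPM and Dnaja2 at 8.21 and 18.81 TPM, so their order turned between the libraries. Dnaja4 was at 0.15 and 0.31 TPM. In class B, Dnajb6, which prevents the aggregation of polyglutamine proteins, led at 31.15 and 51.12 TPM. Dnajb2, a neuronal form that binds ubiquitin, was at 3.43 and 3.72 TPM, Dnajb5 at 2.25 and 3.06 TPM, and Dnajb4 at 0.89 and 1.70 TPM.

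Class C proteins share only the J domain and act at defined sites in the cell. Dnajc7, a cofactor that binds both Hsp70 and Hsp90, was the highest of the class by mean gene TPM, at 26.88 and 50.45. Of this, 31.0% and 40.9% lay on coding transcripts, and over those Dnajc7 was at 8.34 and 20.65 TPM, below Dnajc8 at 23.22 and 37.6 TPM. All 5 of the nuclear or ribosome-associated genes were detected. Dnajc8, linked to splicing, was at 26.25 and 40.58 TPM and Dnajc2, which encodes the ribosome-bound chaperone zuotin, at 16.12 and 22.32 TPM. Dnajc9, a chaperone of histones H3 and H4, was at 7.79 and 14.67 TPM, Dnajc21, a ribosome assembly factor, at 9.25 and 10.61 TPM, and Dnajc17 at 2.94 and 2.75 TPM. The median of these 5 genes was 9.25 and 14.67 TPM.

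Of the 5 vesicle and endosome genes, 3 were detected. Dnajc13, which acts in endosome sorting, was at 18.97 and 16.65 TPM, and Dnajc5, the cysteine string protein of secretory vesicles, at 17.46 and 18.72 TPM. Dnajc6, which encodes the clathrin uncoating factor auxilin, was at 1.94 and 1.76 TPM. The testis relatives of Dnajc5 were low: Dnajc5g was at 0.08 and 0.15 TPM, and Dnajc5b had 0 counts in both libraries. Of the remaining class C genes, Dnajc24, needed for diphthamide synthesis, was at 6.49 and 7.44 TPM, Dnajc4 at 3.56 and 2.96 TPM and Dnajc22 at 3.21 and 1.99 TPM. Dnajc27 was at 2.13 and 2.06 TPM, Dnajc12 at 0.97 and 2.01 TPM, and Dnajc28 at 0.36 and 0.45 TPM.

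Genes known mainly from testis or muscle formed a list of 14, of which Hspa2 and Hspb2 alone were detected. The median of the list was 0.11 and 0.13 TPM. Besides those given above, Dnajb13, a part of the sperm tail, was at 0.52 and 0.69 TPM, Dnajb3 at 0.33 and 0.42 TPM, and Dnajb7 at 0.01 and 0.02 TPM. Dnajb8 had 0 counts in both libraries.

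Other genes of the chaperone system were given by lists of known partners. Of 5 heat shock factor genes and regulators, 3 were detected: Hsbp1, which binds HSF1, at 11.11 and 15.92 TPM, Hsf1 at 4.59 and 5.4 TPM, and Hsf2 at 3.48 and 5.4 TPM. Hsf4 and Hsf5 were under 0.2 TPM in both libraries. All 11 exchange factors and all 14 cochaperones of Hsp70 and Hsp90 were detected. The highest exchange factor was Hyou1, the Hsp110 relative of the ER, at 59.42 and 55.07 TPM, ahead of Bag6 at 47.66 and 51.43 TPM and Bag1 at 14.97 and 22.99 TPM. The highest cochaperones were Fkbp4 at 82.11 and 105.44 TPM, St13 at 44.08 and 70.81 TPM, and the Hsp90 activator Ahsa1 at 40.4 and 69.17 TPM.

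The partners of the ring and of the organelles were detected throughout as well. All 9 prefoldin and ring helper genes were, with Pfdn5 at 27.94 and 55.31 TPM, Pfdn6 at 33.15 and 45.53 TPM and Pfdn1 at 29.82 and 36.84 TPM as the highest. All 9 measured ER folding genes were detected, with a median of 99.87 and 126.6 TPM. The lectin chaperone genes Calr, at 264.23 and 262.83 TPM, and Canx, at 230.98 and 235.87 TPM, and P4hb, which encodes a protein disulfide isomerase, at 187.18 and 218.97 TPM, were above Hsp90b1 in both libraries. Of the 6 mitochondrial proteases and helpers, all detected, Clpb was the highest at 63.86 and 44.48 TPM, followed by Lonp1 at 41.35 and 38.14 TPM and Clpp at 27.06 and 33.59 TPM.

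The libraries differed in chaperone level, with most members higher in replicate 2. With 1 library on each side there is no test, and these are differences between libraries and not between conditions. Of the 62 members whose mean reached 1 TPM, 53 were higher in replicate 2 and 9 lower. That was 85.5%, against 71.7% of the 10480 protein-coding genes of the same level. The median difference, replicate 2 minus replicate 1 on the log2(TPM + 1) scale, was 0.44 for members and 0.23 for protein-coding genes. With counts scaled by TMM, edgeR's factor for RNA composition, the medians were 0.21 and 0.02, and 71% of members against 51.5% of protein-coding genes were higher in replicate 2.

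Few members differed by 2-fold in the ratio of TPM, taken with no pseudocount. At that limit 6 of the 62, or 9.68%, were higher in replicate 2, where 6.44% of protein-coding genes were, and 0 were lower, where 1.43% were. Both shares are near the background. The 6 were Hspb8, Hspa4l, Dnaja1, Dnaja2, Dnajc12 and Dnajc25. With TMM, Hspb8 and Hspa4l remained past 2-fold, or 3.23% of members against 2.46% of protein-coding genes, and 0 members were lower against 3.51%. Of the 7 transcripts of Hspa4l, 1 had a match in M21, a coding transcript at 0.17 and 0.33 TPM. The rest of its level lay on transcripts of unknown type. On the log2(TPM + 1) scale, which lowers the difference of genes near 1 TPM, Hspb8 had the largest difference, 1.24, and rested on 293 and 825 counts. It was followed by Dnaja2 at 1.10, Dnaja1 at 1.02, Hspa4 at 0.91 and Dnajc7 at 0.88. The members lowest in replicate 2 relative to replicate 1 were Dnajc15 at −0.50, Dnajc22 at −0.49, Dnajc16 at −0.31, Dnajc4 at −0.20 and Dnajc13 at −0.18, the last of which turned to 0.04 with TMM.

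The difference was also described by list, with no test between lists. The constitutive cytosolic list had a median of 0.88, or 0.50 with TMM, and the heat-inducible list 0.54, or 0.29 with TMM. The Hsp110 genes had a median of 0.83, or 0.50 with TMM, and the DnaJ A genes 0.74, or 0.55 with TMM. All 8 TCP1 ring genes were higher in replicate 2, with a median of 0.54, and all 8 were also higher with TMM, at a median of 0.31. Among these, Cct6b rested on 16 and 28 counts. The 9 prefoldin and ring helper genes, which pass clients to the ring, had a median of 0.73 and were all higher under both scalings. The UPR-inducible list had a median of 0.15, which turned to −0.09 with TMM, where 2 of 7 genes were higher. Similarly, the ER folding genes had a median of 0.03, or −0.12 with TMM.

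Most fibroblast markers were also higher in replicate 2. Of the 10 fibroblast markers, 8 were higher and Thy1 was lower, at 2.27 and 1.62 TPM. Of the 8 whose mean reached 1 TPM, 7 were at least 2-fold higher, among them Col1a1 at 7.21 and 28.84 TPM. Lum was at 0 in both libraries and Dcn at 0.06 and 0.19 TPM. The part of fibroblast RNA in the difference was not tested. The median GC content of the members was 47.4%, against 50.9% for protein-coding genes of the same level, and its relation to the difference was not tested. Bag3, the partner of Hspb8, was at 1.21 and 3.14 TPM, the same direction as Hspb8. That direction was not particular to Bag3, since 9 of the 11 exchange factors were higher in replicate 2.

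**Figure D4:**
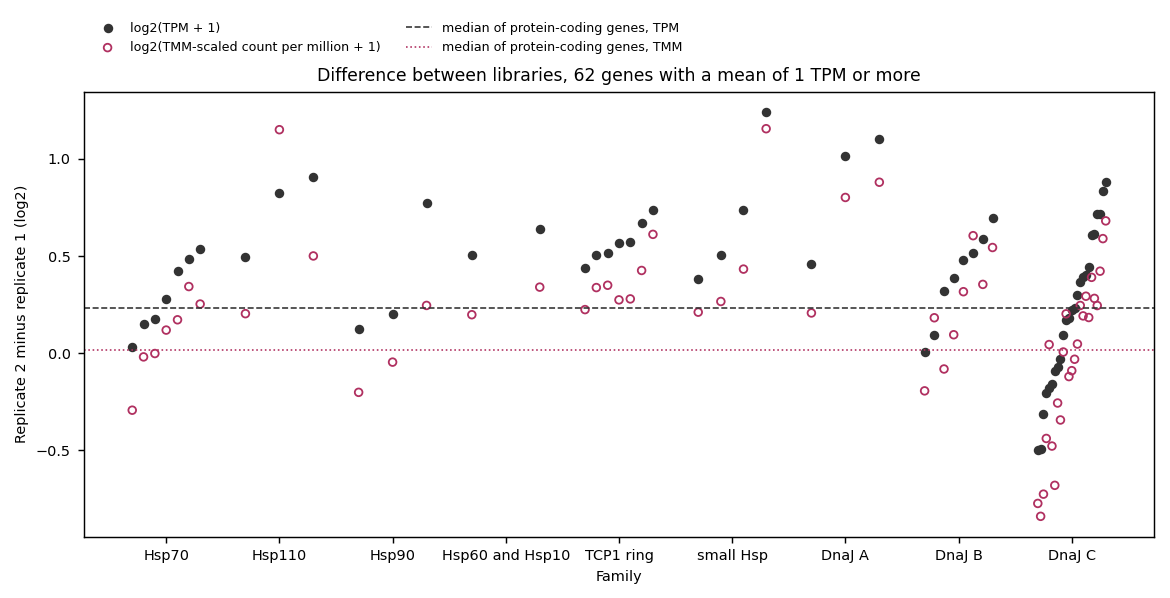
Replicate 2 minus replicate 1 for the 62 genes whose mean reached 1 TPM, by family, on the log2(TPM + 1) scale (filled) and with TMM-scaled counts (open); the dashed and dotted lines are the medians of protein-coding genes, 0.23 and 0.02. Every TCP1 ring point lies above the line of its own scale, and class C spreads to either side.

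The transcript tables showed how much of each gene's level lay on coding transcripts. Of 26 members with more than a single transcript and 10 TPM or more, 25, or 96.2%, had the same leading transcript in both libraries, as did 88.9% of such protein-coding genes. The exception was Dnaja1, whose lead passed from Dnaja1-208, a noncoding transcript with 29.77% of gene TPM in replicate 1, to the coding Dnaja1-201 with 36.05% in replicate 2. Hspa8 was led by the coding Hspa8-202, with 9 exons, at 38.69% and 41.18%. The short noncoding Hspa8-203 took 28.13% and 33.73%, and Hspa8-209 took 27.21% and 20.16%. Over coding types alone, Hspa8 had 38.9% and 41.7% of its TPM but 66.5% and 70.4% of its counts, since short transcripts weigh more in TPM than in counts. Transcripts with no match in M21 have no type and were not counted as coding, among them most of those of Hspa4l, Hsph1 and Hspa9.

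Coding shares were higher in most of the other abundant members. Hsp90b1 had 92.9% and 92.0% of its TPM on coding transcripts, Hsp90ab1 81.8% and 86.2%, and Hspa5 64.2% and 62.9%. For Hsp90aa1 the share was 84.8% and 74.1%. Its retained-intron transcript Hsp90aa1-204, of 325 bases, took 5.67% of gene TPM in replicate 1 and 20.24% in replicate 2. On coding transcripts alone Hsp90aa1 was at 277.68 and 415.88 TPM, Hspa8 at 295.21 and 458.38 TPM, Hsp90ab1 at 277.6 and 336.41 TPM, and Hspa5 at 219.69 and 219.93 TPM. The lead of Hspa8 over Hsp90aa1 was thus much smaller on this measure than on gene TPM.

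**Figure D5:**
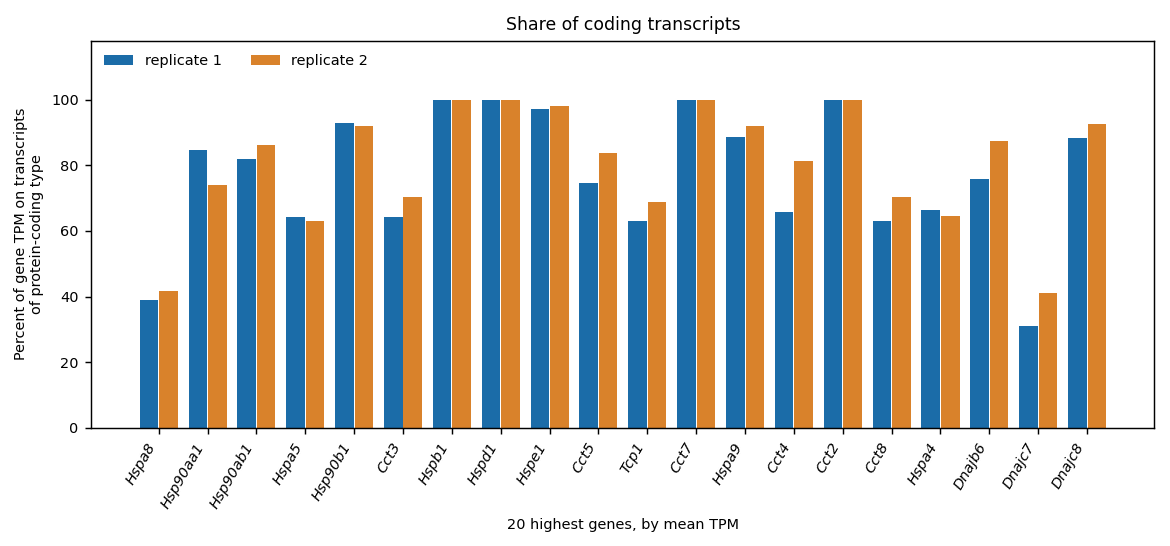
Percent of each gene's TPM on transcripts of protein-coding type in the 20 highest members by mean TPM, with 1 bar per library. Hspa8 lies near 40% in both libraries, below Hsp90b1 at over 90%.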

How the data were processed

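The data are 2 total RNA-seq libraries of ES-E14 cells. Per the labels, the assembly was mm10; the deposited text names annotation M4, and no aligner or quantifier is given in the sources used here. Per the file headers, the authors' tables give for each gene and transcript an expected count (not whole where genes share reads), a TPM over all entries, an FPKM, a posterior mean TPM with interval bounds (used as the authors' signal values, interval level not given) and, for transcripts, the percent of gene TPM. Depth was 43163253 and 45573478 expected counts on genes, and counts of 3 or fewer were read as the floor.

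GENCODE M21 (GRCm38) gave symbols, types and coordinates; 884 of 43346 genes had no match. Differences were taken on log2(TPM + 1), which understates those of low genes, while 2-fold limits used the ratio of TPM itself. TMM came from edgeR 4.0.16 and size factors from DESeq2 1.42.0, on counts rounded for scaling only; no count test was run. Copies were found with BLAST 2.17.0. Promoter windows are from RefSeq (GRCm38.p6), with 20 bases shown on each side of a match, or 5 where the window met an annotated exon. The fold and motif scripts were tested on simulated data.

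With 1 group and 1 library on each side of any difference, no p-value was computed, and error is the SD over the 2 libraries. The members, lists and alternatives were chosen with earlier results of these data known. Genes were named by rule: every member of the families other than DnaJ B and C, every member on a list, the 3 highest and 3 lowest of the other DnaJ B and C genes, the 5 largest and 5 smallest library differences, and for each partner list the 3 highest and those under 1 TPM. Bag3, Col1a1, Lum, Dcn, Thy1, Vim, Acta2, Tdgf1 and the copies were named after their values were seen. Alternatives covered the detection limit, pseudocount, unit, scaling, low-value filter, list membership and each library alone.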

Additional observations from a re-analysis of the deposited data

Results flagged for a closer look

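Among entries that met the symbol pattern but are not protein-coding, 2 processed pseudogenes stood above the floor of 3 counts and enter no comparison of the report. Hspd1-ps3, on chromosome 11, had 351.77 and 610.52 expected counts in replicates 1 and 2. Dnajc19-ps, on chromosome 7, had 6.05 and 18.1 expected counts. Their sequences are 99.0% and 99.1% identical to Hspd1 and Dnajc19 over the aligned part, and whether the reads came from them was not tested.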

How the results depend on the processing

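No paired analysis was possible because the series has 1 group. The number of members detected stayed within 1.5 times of 59 under every alternative, from 40 at a limit of 5 TPM to 68 with TPM rescaled to protein-coding genes, and was 59 and 62 in replicates 1 and 2 alone. None of the list differences, member counts or the median over members that follow reversed. With TMM, the library difference turned sign for the UPR-inducible list (0.15 to −0.09), the ER folding genes (0.03 to −0.12) and Dnajc13 (−0.18 to 0.04). The heat-inducible minus constitutive difference (−2.33) ran from −2.51 to −2.14 in single libraries. It was −3.03 with the TCP1 ring added to the constitutive list, −2.96 with Dnaja1, Hspa4l, Dnajb4 and Hspb8 added to the inducible list and −1.85 on coding transcripts alone. The UPR-inducible minus other ER difference (2.07) ran from 1.98 to 2.15 in single libraries. It was 2.34 with a pseudocount of 0.1, 2.60 with means, 2.31 with TPM rescaled to protein-coding genes, 1.93 without members under 1 TPM and 2.39 on coding transcripts alone. The median difference between libraries (0.44) was 0.21 with TMM, 0.23 with DESeq2 size factors, 0.22 with rescaled TPM and 0.30 with no filter on low values. The 6 members at least 2-fold higher in replicate 2 became 2 with TMM, 2 with DESeq2 size factors and 2 with rescaled TPM, in each case Hspa4l and Hspb8; the protein-coding shares higher were then 2.46%, 2.6% and 2.43%, and lower 3.51%, 3.15% and 3.81%. The 0 members at least 2-fold lower became 2 with no filter (Hspb6 and Hspb9) and 1 with a count of 50 or more in a library (Hspb6). The same leading transcript was found in 14 of 14 members at a limit of 50 TPM. The ratio of Hspa8 to Hspa1a and Hspa1b fell from 235 and 232 to 91.4 and 96.7 on coding transcripts. The values on coding transcripts and those with copies added were chosen after seeing the data. Copies were added to Hspa8 and Hsp90aa1 alone, already the highest genes of their lists. That could not move a list median, so the unchanged −2.33 was fixed beforehand and tells nothing about the copies. Apart from the fewer genes tested at a higher limit and the altered lists, the cause was not tested. Depth limits the members under 1 TPM, and the SD of 2 libraries is itself poorly known.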

Other observations

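The DnaJ genes together held 355.88 and 495.33 TPM, beside 1187.03 and 1564.57 TPM on the Hsp70 genes without the distant relatives Hspa12a and Hspa12b. The ratio of DnaJ to Hsp70 was 0.300 and 0.317, so the libraries were closer in this ratio than in either sum. Both sums were higher in replicate 2 and a ratio removes a shared rise, so this closeness was not read as a trait of these families. By expected counts, which do not correct for length, Hsp90aa1 stood above Hspa8 in both libraries, while by TPM the order was the opposite. The counts were 67656.57 and 94088.24 for Hsp90aa1 and 64182.22 and 89701.31 for Hspa8. With copies added, Hspa8 had 112541 and 163550.99 counts and Hsp90aa1 68764 and 96132.99, so the order by counts turned in both libraries. Hspa1l lies 546 bases from Hspa1a, on the other strand, and was under 1 TPM in both libraries, as given above.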
